A study of Mus musculus with 4 samples.

Results

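The genes described here are 40 genes of the DNA replication machinery, followed across 4 libraries of mouse mammary tumor cells in which S100a4 had been edited or not edited. They were chosen by name as the genes that build and run the replication fork, and all 40 are among the 21090 genes of the deposited RNA sequencing (RNA-seq) table. By role they are 8 genes of origin recognition and licensing (Orc1 to Orc6, Cdc6 and Cdt1), 12 helicase genes (Mcm2 to Mcm7, Mcm10, Cdc45 and Gins1 to Gins4), 18 polymerase and fork genes (Pcna, Rfc1 to Rfc5, Pola1, Pola2, Prim1, Prim2, Pold1, Pold2, Pole, Rpa1 to Rpa3, Fen1 and Lig1) and 2 genes of nucleotide supply (Rrm1 and Rrm2). The lines came from a primary mammary tumor of a mouse that carried the Pik3ca H1047R and Trp53 R270H mutations with MMTV-Cre and also had a lung metastasis, so lines from that tumor share these alleles. MMTV-Cre expresses Cre recombinase from a mammary tumor virus promoter that is active mainly in mammary epithelium. The control group held the parental line, titled with neither a vector nor an edit, and the vector control line. The knockout group held the exon 3 knockout and the exon 2 knockout of S100a4, made with Cas9 and a guide RNA against the named exon in a lentivirus. The methods of the study state that lines infected with lentivirus were selected with puromycin. They do not describe the vector control line separately. Each line gave 1 library, the sources used here do not say whether a line is a single clone, and p-values therefore measure the spread between lines of a group. The titles give the cell number as 307 for 3 libraries and as 308 for the exon 2 knockout, and whether that line came from another starting line is not given in the sources used here.

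Eukaryotic DNA replication starts at origins that the origin recognition complex marks, where Cdc6 and Cdt1 load the ring of Mcm2 to Mcm7. Cdc45 and the GINS complex turn this ring into the active helicase, polymerase alpha with its primase lays down primers, and polymerases delta and epsilon extend them with the sliding clamp PCNA and its loader, replication factor C. Most of these genes are transcribed as cells enter S phase, many under E2F transcription factors, and their transcripts are commonly read as a sign of the share of cycling cells in a culture. In bulk samples like these, fewer cycling cells and less RNA per cell cannot be told apart.

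The promoters of 6 genes are shown because these genes had the largest differences, in each direction, among those whose knockouts both lay outside both controls. Pold2, Pold1 and Cdt1 were higher in the knockouts, and Pola1, Orc2 and Rfc1 were lower, the last 2 of these not after correction for GC content and length, which also reduced the difference of Pola1 from -1.17 to -0.29. Each sequence is the RefSeq promoter window (GRCm38.p6) from 250 bases before to 50 bases after an annotated start of transcription, written 5′ to 3′ on the gene's own strand. Capitals mark an E2F word (TTTCCCGC, TTTCGCGC, TTTGCCGC or TTTGGCGC) or a CCAAT box (CCAAT), on either strand. Where a gene has 2 windows in the table, as Pold2 and Orc2 do, the one listed first there is shown.
Pold2, chr11:5878207-5878506, minus strand: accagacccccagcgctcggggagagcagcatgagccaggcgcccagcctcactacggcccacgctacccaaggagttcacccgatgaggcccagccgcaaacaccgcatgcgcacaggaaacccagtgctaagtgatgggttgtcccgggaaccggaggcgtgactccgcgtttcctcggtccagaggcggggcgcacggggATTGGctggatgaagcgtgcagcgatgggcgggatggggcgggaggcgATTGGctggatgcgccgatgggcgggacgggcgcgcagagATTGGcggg
Pold1, chr7:44548766-44549065, minus strand: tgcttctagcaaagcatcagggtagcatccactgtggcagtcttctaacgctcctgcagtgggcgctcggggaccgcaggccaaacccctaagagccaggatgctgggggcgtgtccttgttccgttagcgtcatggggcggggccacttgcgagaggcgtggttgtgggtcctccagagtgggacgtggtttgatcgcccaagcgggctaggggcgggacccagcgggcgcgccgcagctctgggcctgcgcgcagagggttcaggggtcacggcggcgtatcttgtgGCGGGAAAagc
Cdt1, chr8:122567765-122568064, plus strand: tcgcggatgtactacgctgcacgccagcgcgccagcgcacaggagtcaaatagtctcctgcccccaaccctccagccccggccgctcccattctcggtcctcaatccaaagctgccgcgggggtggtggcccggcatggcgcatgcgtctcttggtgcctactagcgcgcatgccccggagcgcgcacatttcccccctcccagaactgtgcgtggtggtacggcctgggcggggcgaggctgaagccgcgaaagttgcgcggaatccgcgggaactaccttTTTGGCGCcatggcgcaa
Pola1, chrX:93632106-93632405, minus strand: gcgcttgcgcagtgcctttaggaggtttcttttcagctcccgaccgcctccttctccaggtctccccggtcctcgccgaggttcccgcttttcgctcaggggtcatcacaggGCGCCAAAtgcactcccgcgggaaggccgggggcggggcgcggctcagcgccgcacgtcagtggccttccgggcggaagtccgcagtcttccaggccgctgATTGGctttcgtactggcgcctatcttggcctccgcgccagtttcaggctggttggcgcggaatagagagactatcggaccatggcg
Orc2, chr1:58505060-58505359, minus strand: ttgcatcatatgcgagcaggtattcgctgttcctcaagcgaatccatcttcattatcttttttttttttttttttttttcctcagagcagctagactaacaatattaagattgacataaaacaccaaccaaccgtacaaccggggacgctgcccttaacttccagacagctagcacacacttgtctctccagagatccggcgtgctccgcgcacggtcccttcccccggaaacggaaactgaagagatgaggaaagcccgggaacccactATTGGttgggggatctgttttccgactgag
Rfc1, chr5:65335590-65335889, minus strand: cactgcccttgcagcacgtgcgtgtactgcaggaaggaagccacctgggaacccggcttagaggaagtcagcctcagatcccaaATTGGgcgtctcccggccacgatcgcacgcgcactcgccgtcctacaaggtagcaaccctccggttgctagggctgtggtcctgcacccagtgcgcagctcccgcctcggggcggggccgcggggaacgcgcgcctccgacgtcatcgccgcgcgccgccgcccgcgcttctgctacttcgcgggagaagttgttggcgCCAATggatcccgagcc

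Promoter windows were found for 33 of the 40 genes, 41 windows in all. An E2F word stood in 13 of these windows (31.7%), against 2.26% of all 32851 windows of the same length. A CCAAT box stood in 25 of them (61.0%), against 37.4% of all windows. In all windows together, 5 E2F words overlapped a CCAAT box. The 13 genes with an E2F word were Orc1, Orc3, Cdc6, Cdt1, Mcm3, Mcm5, Mcm6, Mcm7, Gins3, Rfc3, Pola1, Pold1 and Lig1. Of the 6 promoters shown, Pold1, Cdt1 and Pola1 each held 1 E2F word. The promoters of Pold2, Pola1, Orc2 and Rfc1 held 3, 1, 1 and 2 CCAAT boxes. The E2F word was thus found on both sides of the comparison, in 2 genes that were higher in the knockouts and 1 that was lower. A match of letters is a description of the window and not evidence of binding.

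**Figure D1:**
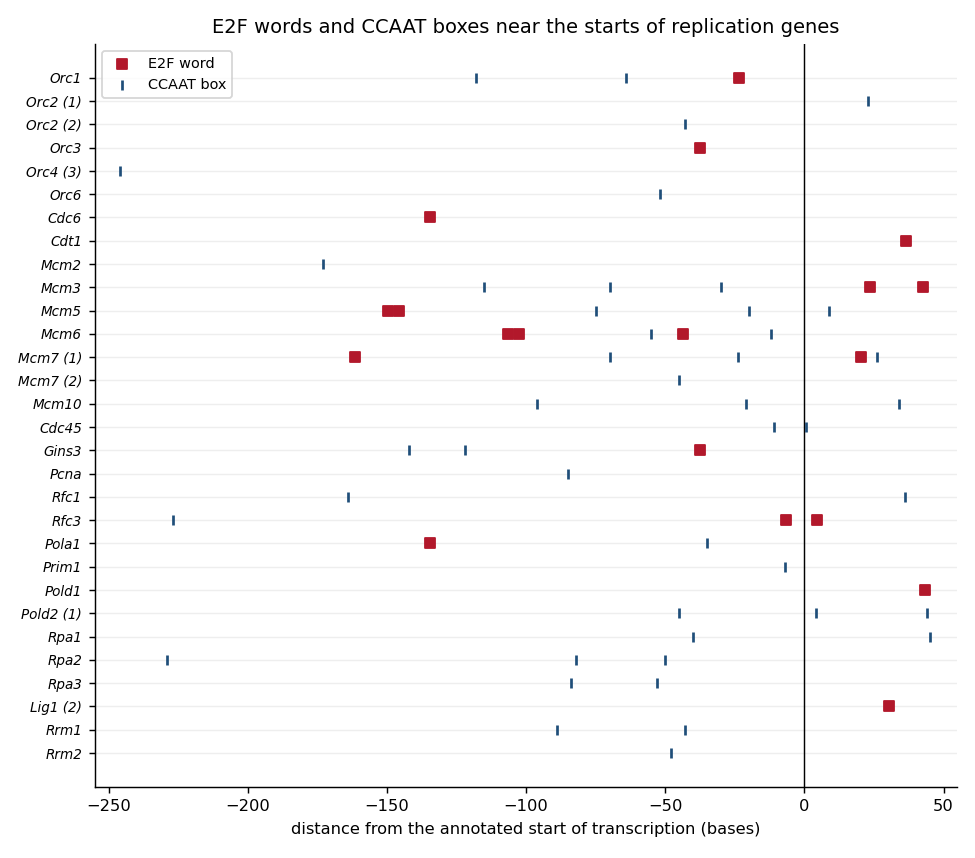
Position of each E2F word (red squares) and CCAAT box (blue ticks) in the promoter windows of replication genes, as the distance in bases from the annotated start of transcription (vertical line), with 1 row for each window that holds a match and, for genes with more than 1 window, the window's number in the table's order in brackets. E2F words stood in 13 of 41 windows and CCAAT boxes in 25, on both sides of the start.

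The values are reads per kilobase of gene, scaled to each library's total (RPKM), as the authors deposited them. The totals behind the RPKM columns were estimated from the RPKM values and annotated coding lengths. They were 31235456 reads for parental cells, 25396254 for vector control cells, 23474246 for exon 3 knockout cells and 22472024 for exon 2 knockout cells. Read counts recovered from the RPKM values lay between 90 (Gins3 in the exon 2 knockout) and 15351 (Mcm3 in the vector control) for a replication gene in a library. S100a4 itself was at 3576 RPKM in parental cells, 4741 in vector control cells, 1136 in exon 3 knockout cells and 1105 in exon 2 knockout cells, a log2 change of -1.88 (SE 0.31) and an adjusted p of 0.0731 in limma. As to cell type, 5 of 6 mesenchymal markers (Vim, Fn1, Col1a1, Col1a2 and Sparc) were above 6 RPKM in all 4 libraries, while Thy1 was at 1.51 RPKM in parental cells and under 0.1 in the others. Of 6 epithelial markers, Krt8 and Krt18 were above 6 RPKM in every library, and Krt5, Krt14, Epcam and Cdh1 stayed under 0.7. Of the markers of other cell types, Ptprc and Cd3e (immune) were at or near 0, and Pecam1, Cdh5 and Kdr (endothelial) at no more than 0.28 RPKM. Cd68 (immune) was at 4.92 RPKM in parental cells and 3.36 in vector control cells. It was higher in the knockouts, at 11.5 in exon 3 and 13.2 in exon 2 knockout cells. Col1a1 was at 670 RPKM in parental cells and 6.93 in vector control cells, so the control lines stood apart from each other in more than the replication genes. The vector control also stood alone in a stretch of chromosome 5. There, 13 of 13 genes within 1 megabase of Dbf4, itself included, were 6.16-fold to 135-fold above the parental line. None of the 40 replication genes lies there.

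All 40 replication genes were expressed in every library, and all 40 passed the filter of a mean RPKM of at least 1 that left 10871 genes for testing. RPKM ran from 2.24 (Orc1 in the parental line) to 392 (Pold2 in the exon 3 knockout). The median over the 40 genes was 24.6 RPKM in parental cells, 39.8 in vector control cells, 33.1 in exon 3 knockout cells and 36.7 in exon 2 knockout cells. Over all genes tested the medians were 16, 17.2, 14.4 and 15.2 RPKM in the same order. Where values are given below in pairs, the parental line precedes the vector control and the exon 3 knockout precedes the exon 2 knockout. The parental line was the lowest library for the replication genes as a group, and the vector control the highest.

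**Figure D2:**
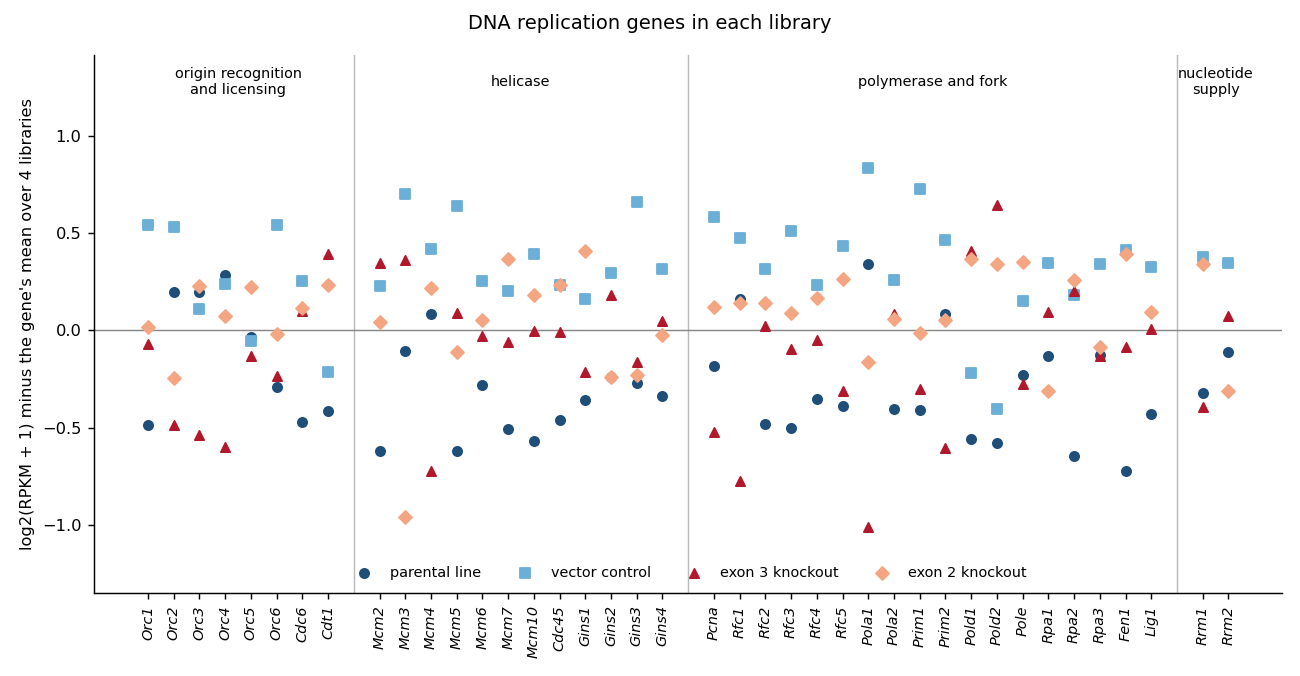
Level of each of the 40 replication genes in the 4 libraries, as log2(RPKM + 1) minus the gene's own mean over the 4 libraries, with genes grouped by role along the horizontal axis. Each point is 1 library. The vector control (light blue squares) was the highest library for 28 of the 40 genes, against 36.6% of all genes tested. The parental line (dark blue circles) was the lowest for 24, against 29.5%.

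Of the 6 pairs of libraries, the controls had the largest median difference in these genes. In the vector control, 37 of 40 replication genes were higher than in the parental line, against 63.4% of all genes tested. The median difference in log2(RPKM + 1) was 0.66, against 0.16 over all genes tested. At least 1.5-fold higher were 22 of 40, against a background of 15.5%, and at least 2-fold higher were 5 of 40, against 3.34%. With 1 library each, this difference has no replicate check. By role, the median differences were 0.27 for origin genes (5 of 8 higher, near the share of all genes tested), 0.70 for helicase genes (12 of 12), 0.63 for polymerase and fork genes (18 of 18) and 0.58 for nucleotide supply (2 of 2).

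The 5 genes at least 2-fold higher on this scale came from 3 of the roles. Mcm5, a subunit of the helicase ring, was at 44.2 RPKM in parental cells and 108 in vector control cells, with the knockouts at 73.0 and 63.3. Prim1, the catalytic subunit of primase, was at 17.5 and 39.7 RPKM, with 19.0 in the exon 3 and 23.4 in the exon 2 knockout. Fen1, the flap endonuclease that trims Okazaki fragments, was at 21 and 47.2 RPKM, with the knockouts at 33.2 and 46.5. Fen1 in the exon 2 knockout was nearly level with the vector control. Rfc3, a clamp loader subunit, was at 24.6 and 50.8 RPKM, with 33.0 and 37.6 in the knockouts. Orc1, the largest subunit of the origin recognition complex, was at 2.24 and 5.63 RPKM, with 3.32 and 3.59 in the knockouts. In all 5 genes both knockouts lay between the controls. The 3 genes that were not higher in the vector control were Orc3, Orc4 and Orc5, which code for core subunits of the same complex. They were at 16.6, 18.6 and 13.4 RPKM in the parental line and at 15.6, 18.1 and 13.2 in the vector control, less than 1.1-fold apart.

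The knockouts often lay between the controls. Both knockouts lay above the parental line and below the vector control in 16 of 40 replication genes, against 7.45% of all genes tested. The vector control was the highest library for 28 of 40, against 36.6% of all genes tested. It was above both knockouts in 29 of 40 genes, a count for which the share of all genes tested was not computed. Against the parental line, the median difference was 0.28 in the exon 3 and 0.48 in the exon 2 knockout, with 28 and 31 of 40 genes higher. Over all genes tested these medians were -0.05 and -0.02, with 5159 and 5322 of 10871 higher. Against the vector control, the median difference was -0.38 in the exon 3 and -0.20 in the exon 2 knockout, with 5 and 10 of 40 genes higher. Over all genes tested these were -0.14 and -0.13, with 4658 and 4517 of 10871 higher. In the replication genes each knockout's difference thus had another sign depending on which control it was set against. These 4 sets of differences share libraries and are not independent of each other.

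**Figure D3:**
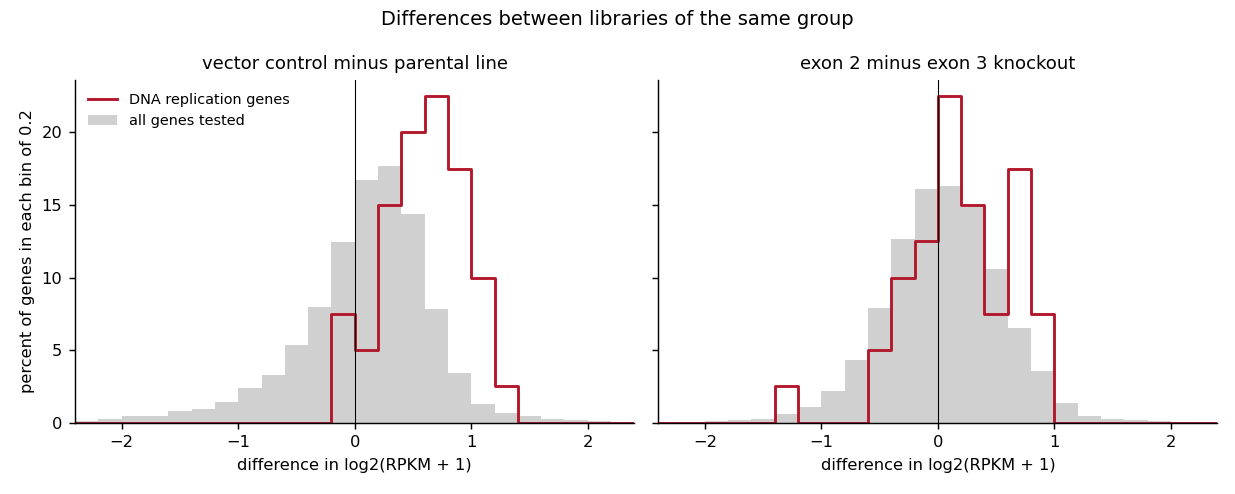
Distribution of the difference in log2(RPKM + 1) between the 2 control libraries (left) and between the 2 knockout libraries (right), as the percent of genes in each bin of 0.2, for the 40 replication genes (red line) and all 10871 genes tested (grey bars). The replication genes sit to the right of all genes on the left panel (medians 0.66 and 0.16) and less so on the right panel (0.19 and 0.05).

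Levels of other genes also differed between the control lines. All 5 mesenchymal markers tested were lower in the vector control than in the parental line (median difference -1.88), with a summed level of 5743 RPKM in parental cells and 3118 in vector control cells, and at 3061 and 2857 in exon 3 and exon 2 knockout cells. Of the 2 epithelial markers tested, Krt18 was at 60.2 RPKM in parental cells and 6.10 in vector control cells, and Krt8 at 69.0 and 27.5. The part of these differences in the result on the replication genes was not tested.

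Between the knockouts themselves the replication genes differed less. In the exon 2 knockout 28 of 40 were higher than in the exon 3 knockout, against 54.4% of all genes tested, with a median difference of 0.19, against 0.05. At least 1.5-fold higher in the exon 2 knockout were 10 of 40, against 1454 of the 10871 genes tested. At least 1.5-fold lower was 1 of 40, against 1022 of 10871. At least 2-fold higher in the exon 2 knockout were 0 of 40 (background 2.57%), and at least 2-fold lower was 1 of 40 (background 2.43%). That gene was Mcm3, a helicase ring subunit, at 195 RPKM in the exon 3 and 77.7 in the exon 2 knockout, a log2 difference of -1.32.

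The question the design asks is whether the lines edited in S100a4 differed from the lines that were not. In this comparison limma called 0 of 40 replication genes at an adjusted p under 0.05, against 2 of the 10871 genes tested (0.0184%). At an unadjusted p under 0.05 there were 2 higher in the knockouts (Pold1 and Pold2), where the background was 5.32%, and 2 lower (Pola1 and Orc2), where it was 13.8%. An exact permutation test of 2 libraries against 2 cannot go below a two-sided p of 0.333, so it could call no gene. The median log2 change was -0.02, with 19 genes higher and 21 lower, against -0.08 over all genes tested. The median changes by role were -0.15 for origin genes (3 higher, 5 lower), 0.02 for helicase genes (7 and 5), 0.03 for polymerase and fork genes (9 and 9) and -0.15 for nucleotide supply (0 and 2). After correction for GC content and coding length these medians were 0.46, 0.23, 0.13 and 0.29 in the same order, against 0.04 over all genes tested, so those of the origin genes and of nucleotide supply turned sign. Of the 40 genes, 0 were at least 2-fold apart in the same direction in all 4 pairs of a knockout and a control, against 2% of all genes tested.

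In 9 of the 40 genes both knockouts lay outside both controls on the same side. Higher in both knockouts were 4 genes (Pold2, Pold1, Cdt1 and Rpa2), against a background of 21.9%, and lower in both were 5 (Pola1, Orc2, Rfc1, Prim2 and Orc4), against 31.2%. Both shares were below those of all genes tested. These 9 genes were spread over the origin and the polymerase and fork roles, and the helicase role had 0.

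**Figure D4:**
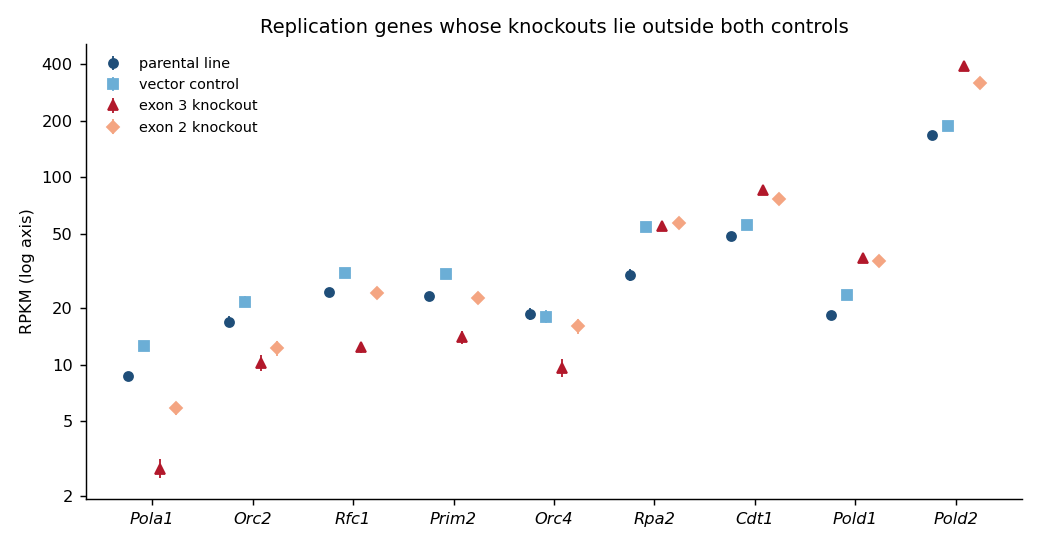
RPKM (log axis) in each library of the 9 replication genes whose knockouts both lay above or both below both controls, ordered by their change. Points are libraries and bars are 95% intervals of the read count, often smaller than the point; Pola1 was at 8.67 and 12.6 in the controls and 2.79 and 5.83 in the knockouts, and Pold2 at 167 and 188 against 392 and 317.

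Pold2 and Pold1, subunits of DNA polymerase delta, had the largest rises of the 40 genes before correction for GC content and length. After it, Orc5 (0.76) lay between Pold2 (0.81) and Pold1 (0.71), and Rfc4 (0.70) was level with Pold1. Pold2, the accessory subunit that holds this lagging strand polymerase together, lies on chromosome 11 from 5872180 to 5878292 (minus strand). It was at 167 RPKM in parental cells and 188 in vector control cells, and at 392 in the exon 3 and 317 in the exon 2 knockout. The means were 178 ± 15.2 for the controls and 354 ± 53.1 for the knockouts (SD, n = 2 each). The groups did not overlap, the log2 change was 0.99 (SE 0.30), and the adjusted p in limma was 0.141. Without the vector control it was called (log2 change 1.07, adjusted p 0.0352 in limma), as were 4.15% of all genes tested. Pold1, the catalytic subunit, lies on chromosome 7 from 44532746 to 44548849 (minus strand). It was at 18.5 and 23.6 RPKM in the controls and at 37.0 and 35.9 in the knockouts, with a log2 change of 0.78 (SE 0.31) and an adjusted p of 0.213 in limma. The knockouts were close to each other and both above the controls. Pole, the catalytic subunit of the leading strand polymerase epsilon, was at 12.4 RPKM in parental cells and 16.5 in vector control cells, and at 12 and 19.1 in exon 3 and exon 2 knockout cells, so the knockouts lay on opposite sides of the controls, as they did in 3 of the 40 genes (Pole, Orc3 and Orc5), against 7.88% of all genes tested.

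The subunits of polymerase alpha and primase, which start each new strand, did not share a direction. Pola1, the catalytic subunit of polymerase alpha, lies on chromosome X from 93304767 to 93632155 (minus strand). It was at 8.67 RPKM in parental cells and 12.6 in vector control cells, and at 2.79 and 5.83 in exon 3 and exon 2 knockout cells. Its log2 change of -1.17 (SE 0.39) was the largest of the 40 in size, and the adjusted p in limma was 0.166. After the correction for GC content and length it was -0.29, smaller than that of Pold2 at 0.81. Without the parental line it was called (log2 change -1.42, adjusted p 0.0423 in limma), as were 7.25% of all genes tested. The exon 3 knockout was the lowest and the groups did not overlap. Its partner Pola2 was at 24.2 and 39.0 RPKM in the controls and at 34.4 and 33.7 in the knockouts, between the controls. Prim2, the large primase subunit on chromosome 1 from 33453810 to 33669795, was at 23.2 and 30.6 RPKM in the controls, 14.0 in the exon 3 and 22.7 in the exon 2 knockout, with a log2 change of -0.55 (SE 0.34) and an adjusted p of 0.388 in limma. The exon 2 knockout was within 3% of the parental line. Prim1 was within the range of the controls in both knockouts.

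The clamp, its loader and the single strand binding proteins also had no common direction. Rfc1, the large subunit of the clamp loader, on chromosome 5 from 65261850 to 65335670, was at 24.5 RPKM in parental cells and 30.8 in vector control cells, and at 12.3 and 24.2 in exon 3 and exon 2 knockout cells. It had a log2 change of -0.64 (SE 0.36) and an adjusted p of 0.356 in limma, and the exon 2 knockout was level with the parental line. The small loader subunits Rfc2 to Rfc5 had a median change of 0.05 and lay between the controls in both knockouts. Rpa2, the middle subunit of replication protein A, on chromosome 4 from 132768332 to 132778752, was at 30.0 RPKM in parental cells and 54.1 in vector control cells, and at 54.9 and 57.0 in exon 3 and exon 2 knockout cells. The knockouts were level with the vector control, with a log2 change of 0.46 (SE 0.34) and an adjusted p of 0.469 in limma. Rpa1 was at 101 and 140 RPKM in the controls and 118 and 88.6 in the knockouts, and Rpa3 at 26.1 and 36.4 against 26 and 26.9. Pcna, the clamp itself, was at 18.3 and 31.8 RPKM in the controls and 14.3 and 22.8 in the knockouts. Lig1, the ligase that seals Okazaki fragments, was at 26.9 and 46.1 RPKM in the controls and 36.8 and 39.2 in the knockouts.

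Among the origin genes, Cdt1 stood apart from the origin recognition complex only before correction for GC content and length. After it, the log2 change of Cdt1 was 0.45. Orc1 (0.47), Orc3 (0.49) and Orc5 (0.76) then lay above it, and Orc2 (0.027), Orc4 (0.087) and Orc6 (0.081) below. Cdt1, which loads the helicase ring and is held in check by geminin, lies on chromosome 8 from 122568015 to 122573554. It was at 48.3 RPKM in parental cells and 55.7 in vector control cells, and at 85.3 and 76.5 in exon 3 and exon 2 knockout cells, means of 52.0 ± 5.18 and 80.9 ± 6.26 (SD, n = 2 each). The groups did not overlap, and the log2 change of 0.63 (SE 0.29) had an adjusted p of 0.271 in limma. Cdc6, its partner in loading, was at 8.18 and 14.2 RPKM in the controls and at 12.6 and 12.8 in the knockouts, between the controls. Orc2, on chromosome 1 from 58462771 to 58505109, was at 17.0 and 21.7 RPKM in the controls and 10.2 and 12.2 in the knockouts, with a log2 change of -0.73 (SE 0.32) and an adjusted p of 0.247 in limma. Orc4, on chromosome 2 from 48902824 to 48950277, was at 18.6 and 18.1 RPKM in the controls, 9.63 in the exon 3 and 16 in the exon 2 knockout, with a log2 change of -0.53 (SE 0.34) and an adjusted p of 0.409 in limma. The exon 3 knockout was the lowest library for Orc2, Orc3, Orc4 and Orc5, whose summed level was 65.6 RPKM in parental cells and 68.5 in vector control cells, and at 41.8 and 61.4 in exon 3 and exon 2 knockout cells. Over all genes tested, the exon 3 knockout was the lowest library for 33.1%. After the correction for GC content and length the median change of these 4 genes went from -0.42 to 0.29, with Orc2 at 0.027 and Orc4 at 0.087. Orc6, the smallest subunit, was at 39.7 and 71.4 RPKM in the controls and 41.3 and 48.2 in the knockouts.

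The helicase genes followed the order of the controls more than the order of the groups. Mcm3, on chromosome 1 from 20802968 to 20820312, had the largest change of this role. It was at 141 RPKM in parental cells and 248 in vector control cells, and at 195 and 77.7 in exon 3 and exon 2 knockout cells, with a log2 change of -0.60 (SE 0.43) and an adjusted p of 0.463 in limma. The exon 2 knockout was the lowest library and the exon 3 knockout lay between the controls, so the change rests on 1 line and was 0.062 without it. Without the parental line Mcm3 was called (adjusted p 0.0454 in limma). The other ring subunits did not share this low value in the exon 2 knockout. Mcm2 was at 40.0 and 73.0 RPKM in the controls and 79.3 and 63.9 in the knockouts, Mcm6 at 65.7 and 95.5 against 78.4 and 83.1, and Mcm7 at 30.7 and 50.9 against 42.3 and 57.2. Mcm4 was at 37.9 and 48.0 RPKM in the controls, 21.2 in the exon 3 and 41.6 in the exon 2 knockout, low in the line in which Mcm3 was not.

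The activators of the ring had levels near or between the controls. Cdc45 was at 22.8 and 37.4 RPKM in the controls and at 31.4 and 37.4 in the knockouts. Mcm10 was at 9.51 and 19.5 against 14.6 and 16.7, between the controls. The GINS subunits lay at 12.5 and 18.3 RPKM in the controls against 13.9 and 22.0 in the knockouts for Gins1, 27.2 and 39.9 against 36.7 and 27.1 for Gins2, 5.95 and 12.2 against 6.48 and 6.15 for Gins3, and 39.7 and 63.0 against 52.2 and 49.6 for Gins4. None of the 12 helicase genes had both knockouts outside both controls.

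Ribonucleotide reductase, which makes the deoxynucleotides, is represented by its large subunit Rrm1 and its small subunit Rrm2. Rrm2, on chromosome 12 from 24708241 to 24714146, was at 48.8 RPKM in parental cells and 67.4 in vector control cells, and at 55.7 and 42.3 in exon 3 and exon 2 knockout cells, with a log2 change of -0.24 (SE 0.32) and an adjusted p of 0.702 in limma. Rrm1 was at 55.6 and 90.7 RPKM in the controls and at 52.7 and 88.4 in the knockouts. The 2 subunits thus had opposite orders in the knockouts, with Rrm1 higher and Rrm2 lower in the exon 2 line.

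The change of a replication gene went with the base composition of its coding sequence. In the 10 genes of lowest GC content (36.6% to 45.8%) the median log2 change was -0.31, with 2 higher and 8 lower. In the 10 of highest GC content (53.8% to 62.4%) it was 0.24, with 8 higher and 2 lower. Across the 40 genes Pearson's r between GC content and change was 0.67 and Spearman's rho 0.62, given as a description, since all points come from the same 4 libraries. Across the 10772 genes tested with an annotated coding sequence r was 0.46. For the difference of the exon 2 minus the exon 3 knockout, r with GC content was -0.53 in the 40 genes and -0.33 in the 10772. For the vector control minus the parental line it was 0.30 and -0.16. Of the 4 genes higher in both knockouts, Pold2, Pold1, Cdt1 and Rpa2 had GC contents of 58.3%, 60.7%, 62.4% and 52.2%. The lower genes Pola1, Orc2, Rfc1, Prim2 and Orc4 had 41.9%, 40.7%, 45.8%, 48.6% and 36.6%. After each library was corrected for GC content and coding length, 11 of 40 genes had a change of another sign (19.1% of all genes tested), and 30 were higher and 10 lower. Pold2 then had a log2 change of 0.81 and Pold1 of 0.71, Cdt1 of 0.45 and Pola1 of -0.29, while Orc2 was at 0.027, Rfc1 at 0.12 and Orc4 at 0.087. The part of GC content in these differences was not tested beyond this correction.

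**Figure D5:**
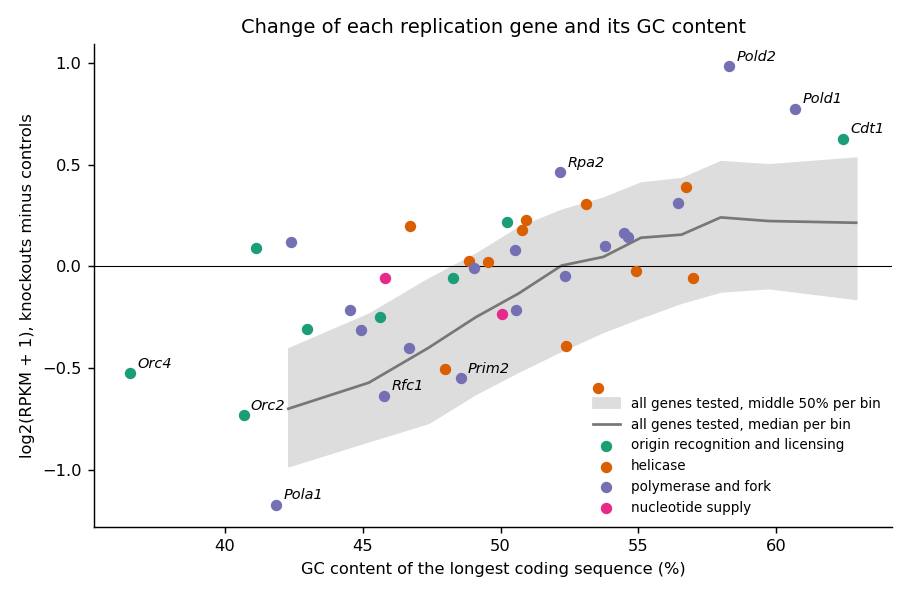
Log2 change, knockouts minus controls on the log2(RPKM + 1) scale, of each of the 40 replication genes against the GC content in percent of its longest coding sequence, coloured by role, with the median (line) and the middle 50% (grey band) of all genes tested in bins of GC content. Pold2, Pold1 and Cdt1 lie above 58% GC at changes of 0.63 to 0.99, and Pola1, Orc2 and Orc4 lie below 42% at -0.53 to -1.17.

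The order of the libraries was compared with the presence of an E2F word. The 13 genes with an E2F word had a median difference of 0.73 between vector control and parental cells (range -0.08 to 1.26), and the 20 genes with a promoter window and no such word had 0.68 (-0.04 to 1.14). The ranges overlapped over nearly their whole length. In the comparison of knockouts and controls the medians were -0.01 and -0.05.

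Other genes of replication and the cell cycle, 83 genes in 7 lists, were placed beside the 40. limma called 0 of the 83 at an adjusted p under 0.05, against 0.0184% of all genes tested. At an unadjusted p under 0.05 in limma, 3 were higher, where the background was 5.32%, and 9 lower, where it was 13.8%. Both shares were below those of all genes tested. The median change was -0.22, with 33 higher and 50 lower, and 73 of 83 were higher in the vector control than in the parental line (median difference 0.42). By list, the median difference between the controls was 0.56 for mitosis (17 of 17 higher in the vector control), 0.50 for the further nucleotide genes (10 of 10), 0.59 for the further polymerase and fork genes (16 of 18) and 0.58 for chromatin assembly (5 of 6). It was smaller for the E2F and Rb genes (0.34, 9 of 12), origin firing and licensing control (0.19, 9 of 11) and the replication checkpoint (0.16, 7 of 9), against 0.16 over all genes tested. In the knockouts, the lists with the lowest medians were the E2F and Rb genes (-0.44, 2 of 12 higher) and the genes of origin firing and licensing control (-0.37, 3 of 11 higher), and the highest were chromatin assembly (0.34, 4 of 6 higher) and the replication checkpoint (0.23, 5 of 9 higher). The further polymerase and fork genes (-0.07, 8 of 18 higher), nucleotide genes (-0.12, 3 of 10 higher) and mitosis genes (-0.02, 8 of 17 higher) lay between. After correction for GC content and length, the median of all 83 genes was 0.11, that of the E2F and Rb genes -0.09 and that of origin firing and licensing control 0.18.

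The genes of smallest p in each list lay on both sides of 0, and none passed an adjusted p of 0.05. Cenpe, a kinetochore motor, was at 9.25 and 17.9 RPKM in the controls and 3.35 and 4.03 in the knockouts, a log2 change of -1.57 (SE 0.38) and an adjusted p of 0.105 in limma. Mki67, the proliferation marker Ki-67, was at 18.2 and 32.2 RPKM against 7.57 and 11.6, a change of -1.28 (SE 0.37) and an adjusted p of 0.138. Top1, topoisomerase I, was at 27.8 and 32.2 RPKM against 11.0 and 14.5, a change of -1.18 (SE 0.32) and an adjusted p of 0.127. These 3 genes were lower in both knockouts than in both controls, and their coding sequences are at 42.7%, 46.0% and 42.3% GC. After correction for GC content and length their changes were -0.64, -0.42 and -0.34. Pold4, the small subunit of polymerase delta, was at 54.0 and 52.1 RPKM in the controls and 77.2 and 91.5 in the knockouts, a change of 0.65 (SE 0.29) and an adjusted p of 0.256, in the direction of Pold1 and Pold2. The other named genes had changes of 0.82 (Recql4), 0.76 (Rad1), 0.73 (Chaf1b), 0.52 (Dut) and 0.41 (Chaf1a), and of -0.94 (Donson), -0.84 (Rb1), -0.84 (Chek1), -0.80 (Rbl1) and -0.55 (Tyms), all with adjusted p above 0.2 in limma. After correction for GC content and length, the higher genes were at 0.87, 1.18, 0.81, 0.24 and 0.44 in the same order. The lower genes were then at -0.88 (Donson), 0.026 (Rb1), -0.19 (Chek1), -0.016 (Rbl1) and -0.39 (Tyms).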

How the data were processed

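RNA-seq of 4 mouse mammary tumor cell lines was analysed, grouped by the sample titles into 2 controls and 2 knockouts. The authors deposited RPKM values for 21090 genes, and 0 columns were left unmatched to a sample. Per the submitters' processing notes, CASAVA 1.8, GSNAP and GRCm38 were used, and the gene model and counting rule behind RPKM are not given in the sources used here. Whole reads were recovered from ratios of RPKM (99.97% of genes above 0, tolerance 0.001 reads). The library totals were fitted to annotated coding lengths, and the reads of 1032 genes were multiplied to reach one. Lengths behind RPKM then equalled an annotated coding length for 61.4% of 10767 genes, a match that is partly built in. Symbols were matched to GENCODE M21 (GRCm38) for 99.4% of genes.

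Values were tested as log2(RPKM + 1), with a mean RPKM of at least 1, by limma 3.58.1 (R 4.3.3) with an intensity trend, without covariates, and p-values were Benjamini-Hochberg adjusted over 10871 genes (threshold 0.05). Low values are compressed on this scale, so a change of a gene of low RPKM comes out smaller, and fold thresholds were applied on it. The script was tested on simulated data. Intervals cover counting error only. For the GC and length correction, each library was smoothed by loess on coding GC content and length. Full statistics were given for genes whose knockouts both lay outside both controls and for the largest change in each role, and the 2 genes of smallest p were named from each other list. The members and lists were chosen with earlier results of these data known. Alternatives were other pseudocounts, filters, scalings and limma settings, and leaving out each library. Promoters came from RefSeq (GRCm38.p6). Of the marker genes, 1 is not reported here.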

Additional observations from a re-analysis of the deposited data

Results flagged for a closer look

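In 3 of the 40 replication genes the exon 2 and exon 3 knockouts lay on opposite sides of both controls. This was near the share of all genes tested (7.88%). Orc3, an origin recognition complex subunit, was at 16.6 RPKM in parental cells and 15.6 in vector control cells, and at 9.56 and 17.0 in exon 3 and exon 2 knockout cells, a log2 difference of 0.77 between the knockouts. Orc5, of the same complex, was at 13.4, 13.2, 12.4 and 16.2 RPKM in the same order, a log2 difference of 0.36. Pole, the catalytic subunit of polymerase epsilon, was at 12.4, 16.5, 12 and 19.1 RPKM, a log2 difference of 0.63. The exon 3 values of Orc5 and Pole had 95% counting intervals of 11.2 to 13.7 and 11.5 to 12.6 RPKM, which reach the lower control. The exon 2 value of Orc3 had an interval of 15.8 to 18.2 RPKM, which covers the higher control. With 1 library for each knockout, no test of this difference was run.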

How the results depend on the processing

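With all 4 libraries, the count of replication genes called was 0 under 8 alternatives (a pseudocount of 0.1, no filter, a mean RPKM of at least 5, median ratio scaling, quantile normalization, the GC and length correction, a robust prior and no intensity trend). Genome wide, these gave between 0 and 285 calls. With 1 library left out, between 0 and 2 replication genes were called. Without the vector control, limma called Pold2 (log2 change 1.07, adjusted p 0.0352, with 4.15% of all genes called), and without the parental line Mcm3 (-1.0, adjusted p 0.0454) and Pola1 (-1.42, adjusted p 0.0423, with 7.25% of all genes called). The arm then holds 1 library, which is assumed to vary like the other group.

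The count of genes whose knockouts lay outside the controls was 9, became 14 after the GC and length correction and lay between 17 and 33 with 1 library left out, where fewer values have to be ordered. For all genes tested, the shares of this kind (21.9% higher, 31.2% lower) were computed with all 4 libraries and no correction. Whether the other counts are below or above their own background was therefore not tested. The median change lay between -0.32 without the parental line and 0.32 without the vector control. Between the controls, the count at least 2-fold apart was 5, and 22 at 1.5-fold, 3 with median ratio scaling and 3 with the GC and length correction. Between the knockouts it was 1, and 11 at 1.5-fold and 2 with a pseudocount of 0.1. Of 88 values of the 11 genes given in full, 3 changed direction, all with the GC and length correction: Orc2 to 0.027, Orc4 to 0.087 and Rfc1 to 0.12. With 1 library left out, the change of Mcm3 lay between -1.26 and 0.062, the latter without the exon 2 knockout. Median ratio scaling moved the median of all genes tested from -0.08 to 0.02, and 25 of 40 replication genes were then higher. Adjusted p over the alternatives with 4 libraries ran from 0.0790 to 0.328 for Pold2 and from 0.0846 to 0.659 for Pola1. Replicate numbers follow the order of deposition. No paired analysis was possible because the numbers link no library of one group to a library of the other.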

Other observations

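A gene of origin firing stood far out in the vector control. Dbf4, the regulatory subunit of the Cdc7 kinase that fires origins, was at 50.3 RPKM in parental cells and 1985 in vector control cells, and at 32.0 and 71.7 in exon 3 and exon 2 knockout cells, from 3237, 103919, 1548 and 3322 reads. The vector control was 39.5-fold above the parental line, and the gene ranked 13 by RPKM in it. Dbf4 was singled out after its values were seen.

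The genes beside Dbf4 on chromosome 5 (8396973 to 8422716, GRCm38) had the same pattern. Within 1 megabase on each side, 13 of 13 genes, Dbf4 included, were at least 2-fold higher in the vector control than in each other library. They were 6.16-fold to 135-fold over the parental line. Sri, a calcium-binding protein gene, was at 134 RPKM in parental cells and 5379 in vector control cells. Abcb1b, a drug efflux transporter gene, was at 10.6 and 443 RPKM, with 7.45 and 7.14 in the knockouts. Crot, a peroxisomal carnitine acyltransferase gene, was at 14.2 and 674 RPKM, with 7.29 and 11.3 in the knockouts. Of the 10 genes tested with the largest rises from the parental line to the vector control, 8 lay within this stretch, Dbf4 among them. Among the tested genes from 1 to 5 megabases away, 3 of 20 were at least 2-fold higher in the vector control than in each other library. Steap1, at 5736317, was at 113 and 140 RPKM in the controls, and Sema3a, at 13125414, at 22.3 and 20.1. Grm3, at 9485541, was at 14.3 RPKM in the vector control and 0 in each other library. Zfp804b, at 6769010 and too low to be tested, was at 0.0159 RPKM in parental cells and 1.56 in vector control cells. None of the 40 replication genes lies within 1 megabase of Dbf4. The cause of this pattern was not tested, and these genes enter every comparison in which the vector control is a control.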
